A study of Ovis aries with 7 samples.

Results

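D2 medium spiny neurons, the striatal projection neurons that carry the dopamine receptor DRD2 and make enkephalin from PENK, were selected from single-nucleus RNA sequencing of sheep striatum by the unique molecular identifiers (UMIs, counts of distinct RNA molecules) of 11 genes. A barcode counted as a D2 nucleus when it held at least 8000 UMIs and at most 7500 detected genes, and at least 20 UMIs of the shared spiny neuron genes PDE10A, RGS9, RARB and ANO3 together. It also had to hold at least 10 UMIs of DRD2, PENK and HS3ST4 together, at least 3 times as many of these as of TAC1, EBF1 and RELN together, and fewer than 30 ERBB4 UMIs per 10000. The rule found 1164 nuclei among 35272 barcodes (3.30%), and among 5159 spiny nuclei that met its conditions on depth, shared genes and ERBB4. Exchanging the DRD2 and TAC1 sums gave 2220 D1 nuclei, and 1775 spiny nuclei met neither ratio. Since the D2 nuclei were chosen by the levels of these genes, their differences from other classes are given as descriptions without a test. OVT73 and control libraries, which the rule did not separate, were compared by tests.

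Spiny projection neurons release GABA and are the main neurons of the striatum. D1 neurons, of the direct pathway, project to the output nuclei of the basal ganglia and express TAC1, whereas D2 neurons, of the indirect pathway, project to the external globus pallidus. In D2 neurons dopamine lowers cyclic AMP through DRD2 and adenosine raises it through ADORA2A, and PDE10A, a phosphodiesterase, breaks it down. RGS9 shortens G protein signals, and HS3ST4 is a heparan sulfate sulfotransferase. In Huntington's disease, caused by an expanded CAG repeat in HTT, indirect-pathway neurons are among the cells lost early.

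The striatum of 12 sheep aged 5 years was sampled, from 6 OVT73 animals and 6 wild-type controls. OVT73 sheep carry a full-length human HTT cDNA with an expanded CAG repeat under the human HTT promoter, and the controls carry no transgene. Frozen anterior striatum was used, and nuclei were sequenced as 7 droplet libraries. Nuclei of 2 sheep were pooled in every OVT73 library and in control libraries 3 and 4, while control libraries 1 and 2 held 1 sheep each. The study assigned pooled nuclei to sheep by their genetic variants, an assignment not used here. The library was therefore the replicate (n = 3 OVT73 and 4 control) and the p-values measure the spread between libraries. Total UMIs ranged from 27760110 to 70473426 per OVT73 library and from 20887378 to 27704528 per control library. Of the distinct barcode sequences, 159 occurred in more than 1 library, and 0 D2 barcodes were shared between libraries.

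D2 nuclei numbered 137, 385 and 149 in OVT73 libraries 1 to 3, and 106, 112, 145 and 130 in control libraries 1 to 4. OVT73 library 2 stood apart, with more D2 nuclei than any other library. As a share of barcodes with 200 to 7500 genes and at most 5% mitochondrial UMIs, they made up 1.58%, 7.30% and 3.54% in the OVT73 libraries and 3.28%, 2.75%, 3.46% and 3.02% in the control libraries. The OVT73 mean was 4.14% ± 2.91 (SD, n = 3) and the control mean 3.13% ± 0.311 (n = 4), and the groups overlapped (exact permutation test, two-sided, p = 0.6). With 35 ways to draw 3 of 7 libraries, no p under 0.0286 can be reached. Among D1 and D2 nuclei together, D2 nuclei made up 18.4%, 45.4% and 37.5% in the OVT73 libraries, and 26.6%, 43.9%, 40.4% and 33.9% in the control libraries. This share, in which the depth minimum applies to both classes, also overlapped between the groups (33.8% ± 13.9 against 36.2% ± 7.61, exact permutation p = 0.771).

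**Figure D1:**
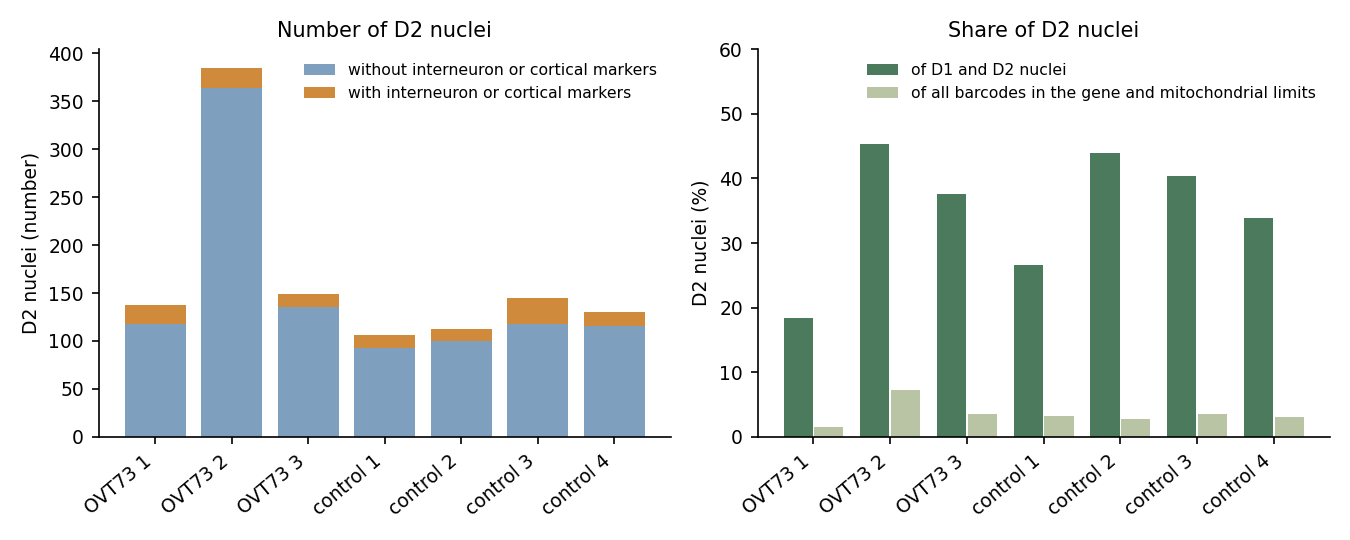
Number of D2 nuclei in each library (left; blue, nuclei without interneuron or cortical markers, and orange, nuclei with them) and their share in percent (right; dark green, of D1 and D2 nuclei, and light green, of all barcodes in the gene and mitochondrial limits). OVT73 library 2 holds 385 D2 nuclei and the other libraries 106 to 149.

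The median D2 nucleus held 23406 UMIs and 4822.5 detected genes. Median UMIs per D2 nucleus were 33007, 22628 and 26101 in the OVT73 libraries and 21571, 22904, 18918 and 26448.5 in the control libraries. The OVT73 mean of these medians was above the control mean by 4785 UMIs, within the spread between libraries (exact permutation p = 0.229). Mitochondrial transcripts made up 0.628% ± 0.157 of D2 UMIs in OVT73 and 0.565% ± 0.259 in control libraries (exact permutation p = 0.714), and 1 of the 1164 nuclei exceeded 5%.

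HS3ST4 decided most of the selection. It held 94.5% of the UMIs of the DRD2, PENK and HS3ST4 sum, and RELN held 93.9% of the TAC1, EBF1 and RELN sum in D2 nuclei. At least 1 UMI of DRD2 was seen in 57.2% of D2 nuclei, against 6.04% of D1 nuclei, and of PENK in 49.6% against 6.22%, at median depths of 23406 and 23633.5 UMIs per nucleus. With every nucleus thinned to 8000 UMIs, the shares with a DRD2 UMI were 27.1% ± 11.4 in D2 and 2.33% ± 1.17 in D1 nuclei (SD over 7 libraries). Both genes are part of the rule, so that these shares describe the selection, and a nucleus could enter on HS3ST4 alone. The 194 nuclei just inside the ratio (3 to under 4) had 44.2 DRD2 and 52.9 PENK CPM (UMIs per 1000000 UMIs) and 375 RELN CPM. The 258 nuclei just outside it (2 to under 3) had 49.5 DRD2 and 42.3 PENK CPM and 472 RELN CPM, so that the nuclei on the 2 sides of the limit had much the same DRD2.

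A group of D2 nuclei carried transcripts of other neurons. At least 5 UMIs of 10 interneuron markers, among them CHAT, SST, NPY, PTHLH, LHX6 and NXPH1, were present in 117 D2 nuclei and at least 5 UMIs of 6 cortical excitatory markers in 36, with 120 nuclei in either set (10.3%). These marked nuclei numbered 19, 21 and 14 in the OVT73 libraries and 13, 12, 27 and 14 in the control libraries, or 9.57% ± 4.21 against 13.1% ± 3.76 of D2 nuclei (exact permutation p = 0.371). In the marked nuclei the mean level of SST, the somatostatin precursor, was 1878 CPM and that of NPY, neuropeptide Y, 1282 CPM, against 8.78 and 4.34 CPM in the 1044 unmarked nuclei. DRD2 was at 16.0 CPM in marked and 49.4 CPM in unmarked nuclei, PENK at 10.2 and 52.9 CPM, and PDE10A at 1516 and 3150 CPM. PTPRM and SP9, which are also high in D2 nuclei as a whole, were higher still in the marked nuclei (PTPRM 800 against 359 CPM, SP9 19.7 ± 14.2 against 8.15 ± 2.03 CPM). The marked nuclei thus met the rule through HS3ST4 (1787 CPM, against 1396 CPM in unmarked nuclei) while holding less DRD2, PENK and PDE10A than the unmarked ones, and a cell type is not assigned to them here. Their median depth was 32104 UMIs against 22686 UMIs in unmarked nuclei. No doublet caller was run, and whether the marked nuclei hold RNA of more than 1 nucleus was not tested. The order of genes between D2 and D1 nuclei, the most variable genes, and the features called between the groups are given with and without them.

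RELN, an extracellular glycoprotein, kept a further set of nuclei out. With RELN left out of the marker sums, 1031 more nuclei met the D2 rule, for 2195 in all. These RELN-rich nuclei numbered 430, 112 and 111 in the OVT73 libraries and 129, 45, 65 and 139 in the control libraries, and OVT73 library 1 alone held 430 of them. They had 40.9 ± 11.4 CPM of DRD2, 32.2 ± 7.68 of PENK and 771 ± 139 of RELN (SD over 7 libraries), against 3.40 ± 1.89, 2.74 ± 1.54 and 1008 ± 219 CPM in D1 nuclei. Of genes that the rule did not use, ADORA2A was at 7.67 ± 2.65 CPM in the RELN-rich nuclei, 10.1 ± 3.45 in unmarked D2 nuclei and 0.401 ± 0.424 in D1 nuclei, and GRIK3, a kainate receptor subunit, at 225 ± 43.8, 290 ± 75.2 and 48.9 ± 14.03 CPM. The D2 nuclei described here are therefore the RELN-low share of nuclei with indirect-pathway transcripts. With RELN left out, D2 nuclei made up 73.1% ± 6.93 of D1 and D2 nuclei in OVT73 and 76.5% ± 8.75 in control libraries (exact permutation p = 0.543). The same change cut the number of D1 nuclei from 2220 to 808, since RELN held 72.2% of the TAC1, EBF1 and RELN sum in D1 nuclei. The higher share thus reflects fewer D1 nuclei as well as more D2 nuclei.

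**Figure D2:**
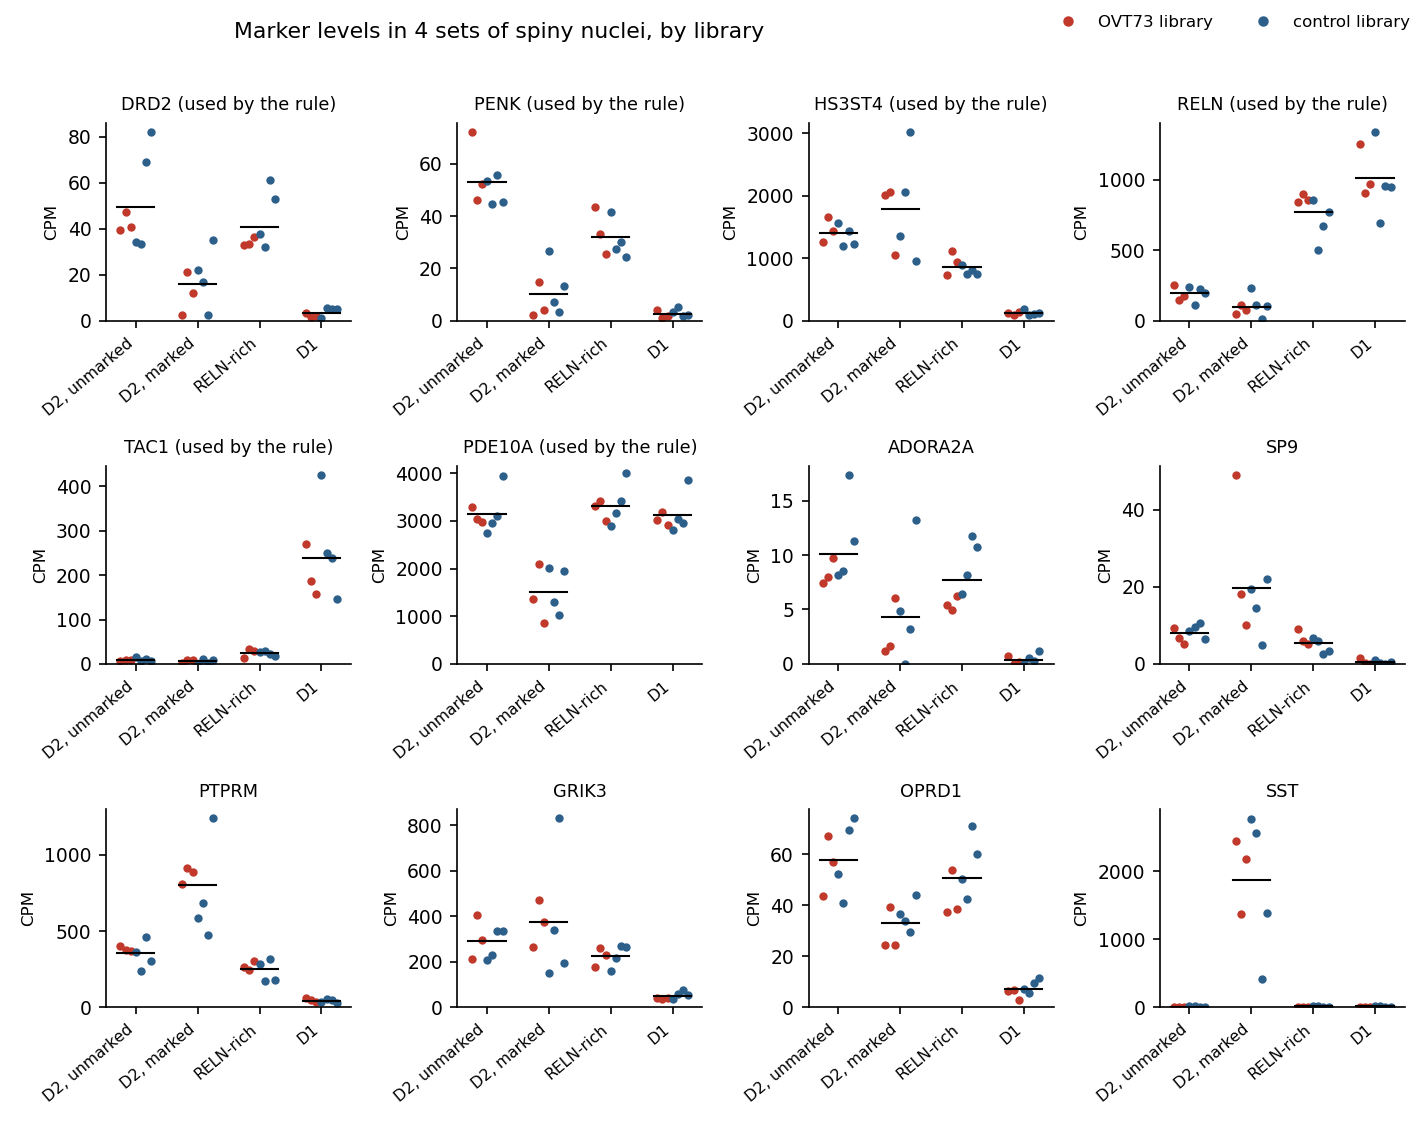
CPM of 12 genes (vertical axes, each from 0) in unmarked D2, marked D2, RELN-rich and D1 nuclei, with 1 point per library (red, OVT73; blue, control) and a line at the mean of 7 libraries. DRD2, PENK, ADORA2A, GRIK3 and OPRD1 are higher in unmarked D2 and RELN-rich nuclei than in D1 nuclei, SST is high in marked nuclei, and PDE10A is lowest there.

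Genes of the indirect pathway that the rule did not use had higher levels in D2 than in D1 nuclei of every library. Levels here are normalised CPM (scaled by library factors over all 14 sums) in nuclei without interneuron or cortical markers. ADORA2A was at 7.66, 8.68 and 10.1 CPM in D2 nuclei of the OVT73 libraries and 7.85, 8.44, 16.2 and 11.5 CPM in those of the control libraries, against 0 to 1.13 CPM in D1 nuclei. PTPRM, a receptor-type tyrosine phosphatase, was at 361 ± 70.1 CPM against 43.4 ± 12.1 CPM, and GRIK3 at 293 ± 84.7 against 47.1 ± 9.06 CPM. SP9, a transcription factor needed for the formation of indirect-pathway neurons, was at 8.15 ± 1.81 against 0.5004 ± 0.573 CPM, and GPR6, an orphan receptor of these neurons, at 1.27 ± 0.614 against 0.106 ± 0.103 CPM. Of 7 direct-pathway genes measured outside the rule, PDYN, ISL1, SLC35D3 and SFXN1 were lower in D2 nuclei in all 7 libraries and CHRM4 in 6, while EYA1 and ZFHX3 had log2 ratios of 0.18 and 0.07. SFXN1 and ZFHX3 alone reached 20 CPM, the level at which 6.78% of all features were lower in all 7. PDYN, the dynorphin precursor, was at 0.125 CPM in D2 and 2.61 CPM in D1 nuclei, ISL1, a transcription factor of direct-pathway neurons, at 0.0360 and 1.70 CPM, SFXN1 at 236 and 325 CPM, and TAC1, which the rule used, at 9.46 and 242 CPM. DRD1 and GPR52 were not analysed here, since no feature carried these symbols.

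Among 5661 features with at least 20 CPM in either class, 514 (9.08%) were higher in unmarked D2 than in unmarked D1 nuclei in all 7 libraries and 384 (6.78%) were lower in all 7. The 15 with the largest ratio in each direction, apart from the genes of the rule, are plotted by library. UNC5D, a netrin receptor, had the largest, with a mean log2 ratio of 5.37 (SD 0.71 over 7 libraries) and levels of 547 ± 314 CPM against 13.1 ± 12.1 CPM. ALK, a receptor tyrosine kinase, followed with 4.65 (SD 0.97), at 397 ± 146 against 15.2 ± 6.63 CPM, and NTS, the neurotensin precursor, with 3.66 (SD 0.54). NTS was at 147, 51.5 and 36.5 CPM in D2 nuclei of the OVT73 libraries and at 81.3, 72.8, 73.9 and 49.6 CPM in those of the control libraries, against 2.52 to 5.88 CPM in D1 nuclei. The others were PTPRM, IPCEF1, OPRD1, GRIK3, ADRA1A, CSGALNACT1, KCNT2, EDIL3, TRHR, SYT10, CACNA2D2 and BACH2, with log2 ratios from 3.05 down to 1.44. Of these 15, ALK, KCNT2 and BACH2 owed most of their ratio to the ALK-rich nuclei (5 or more ALK UMIs of 8000, 107 of 1044), ALK by the choice of those nuclei. In the 874 unmarked D2 nuclei with 0 ALK UMIs of 8000, KCNT2 was at 5.35 ± 3.75 CPM against 4.48 ± 2.42 CPM in D1 nuclei at the same depth (log2 ratio 0.07, higher in 4 libraries and lower in 3), and BACH2 at 58.8 ± 19.1 against 46.04 ± 9.35 CPM (0.30, higher in 6 libraries). The other 12 were higher than in D1 nuclei in all 7 libraries there too. These 15 include the receptors OPRD1 (delta opioid), ADRA1A (alpha-1 adrenergic), TRHR (thyrotropin-releasing hormone) and GRIK3.

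Transcripts lower in D2 than in D1 nuclei included transcription factors and a neuregulin. FOXP2 was at 1.91 ± 1.55 CPM against 77.7 ± 24.1 CPM (log2 ratio -4.86), ADARB2, an RNA-binding relative of the ADAR editing enzymes, at 8.39 ± 5.94 against 163 ± 63.9 CPM (-4.26), and SOX5 at 10.8 ± 7.86 against 33.5 ± 10.3 CPM (-1.76). NRG3, a ligand of ERBB4, was at 208 ± 184 against 2752 ± 506 CPM (-4.48). NRG3 varied most between libraries among these 15 (SD of the log2 ratio 1.62), from 20.7 CPM in control library 1 to 469 CPM in OVT73 library 1 before normalisation. After normalisation NRG3 was at 486, 255 and 387 CPM in D2 nuclei of the OVT73 libraries. In those of the control libraries it was at 19.8, 40.2, 39.3 and 227 CPM, so that the groups did not overlap. Between the groups without marked nuclei edgeR called EPYC alone, so that NRG3 was not called. The remaining 11 were GNG12, PLPP4, KCNB2, FIGN, LIN28B, PDE1A, RASGRF2, LYPD1, TUB, NECTIN3 and GRK3, with log2 ratios between -1.86 and -1.06. GNG12 codes for a G protein gamma subunit, PDE1A for a calcium-dependent phosphodiesterase and KCNB2 for a voltage-gated potassium channel.

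**Figure D3:**
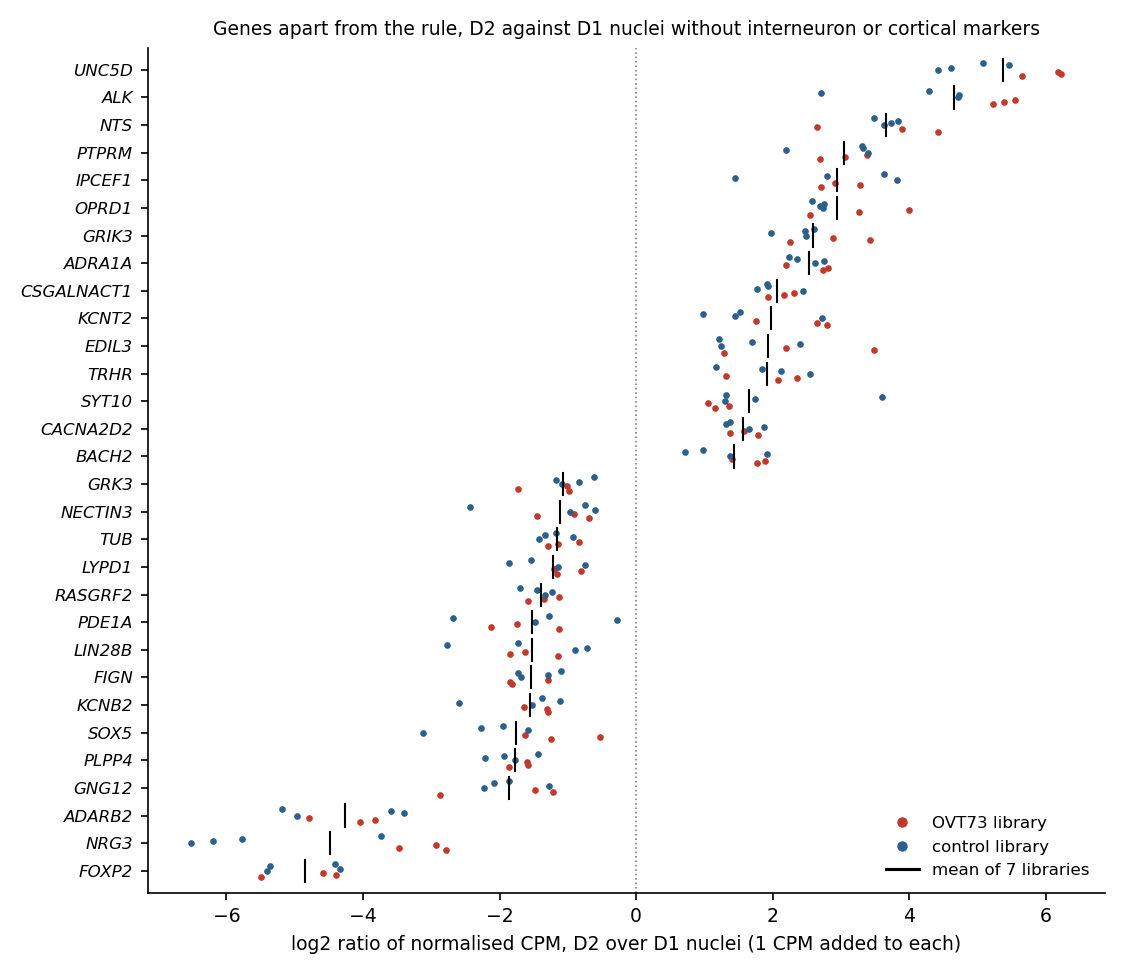
Log2 ratio of normalised CPM in D2 over D1 nuclei (horizontal axis) for the 15 genes with the largest ratio in each direction, without marked nuclei and apart from the genes of the rule, with 1 point per library and a line at the mean. All points lie on 1 side of 0, by the choice of the genes, from FOXP2 at -4.86 to UNC5D at 5.37.

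The marked nuclei changed which genes headed this order. With them included, 594 of 5725 features (10.4%) were higher and 505 (8.82%) lower in D2 nuclei in all 7 libraries, and 7 of the 15 genes with the largest ratio in favour of D2 nuclei were NPY, SST, SOX6, NXPH1, TOX, CORT and CHODL, whose log2 ratios of 4.78, 4.51, 3.97, 3.74, 3.64, 3.46 and 3.37 turned below 0 without the marked nuclei. SST, NPY and NXPH1 were among the markers that defined the marked nuclei, so that the fall of their ratios followed from that choice. NOS1, ELAVL2 and SLC44A5 went from 4.57, 3.498 and 3.24 to 0.10, 0.10 and 0.07. UNC5D, ALK, NTS, KCNT2 and PTPRM stayed above 1.9 (5.37, 4.65, 3.66, 1.98 and 3.05), although ALK and KCNT2 did so through the ALK-rich nuclei. SST, NPY, CORT, CHODL and NOS1 are known markers of somatostatin interneurons, so that the first 15 genes of the whole set are in large part those of 120 nuclei.

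Most receptor genes were on 1 side between D2 and D1 nuclei. Of 9 receptors for dopamine, adenosine, opioids, serotonin and related ligands at 20 CPM or more, DRD2, which the rule used, HTR6, DRD3, HTR2A, HTR4, OPRM1 and OPRD1 were higher in unmarked D2 nuclei in all 7 libraries (6 of the 8 outside the rule, against 9.08% of all features) and HTR2C was lower in all 7. OPRD1 was at 45.2, 73.1 and 58.7 CPM in D2 nuclei of the OVT73 libraries and 50.0, 40.6, 65.3 and 75.1 CPM in those of the control libraries, against 2.76 to 11.7 CPM in D1 nuclei. OPRM1, the mu opioid receptor, was at 294 ± 50.1 against 129 ± 38.9 CPM, the serotonin receptors HTR4 at 577 ± 49.9 against 291 ± 39.6 CPM and HTR2A at 113 ± 12.6 against 59.0 ± 13.3 CPM. HTR2C was at 136 ± 29.7 against 236 ± 33.7 CPM. OPRK1, the kappa opioid receptor, was at 31.0 ± 4.81 against 31.4 ± 6.86 CPM, higher in 4 libraries and lower in 3.

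Ion channel genes mostly had smaller ratios. Beside 9.08% of all features higher and 6.78% lower, of 15 ionotropic glutamate receptor genes 7 (46.7%) were higher in D2 nuclei in all 7 libraries and 1 (6.67%), GRIK2, was lower (2841 ± 281 against 4444 ± 526 CPM). Apart from GRIK3 the higher ones had log2 ratios from 0.06 (GRIN2B) to 0.64 (GRIK4). Of 23 potassium channel genes 11 (47.8%) were higher and 3 (13.04%) lower, with KCNT2 (log2 ratio 1.98, but 0.07 in nuclei with 0 ALK UMIs), KCNIP1 (0.85) and KCND3 (0.44) at the upper end and KCNB2 (-1.55), KCNJ3 (-0.42) and KCNK1 (-0.22) below 0. Of 19 calcium channel genes 3 (15.8%) were higher and 1 (5.26%) lower, and of 10 GABAA receptor subunits 0 were higher and 2 (20%) lower. CACNA2D2, an auxiliary calcium channel subunit, was at 67.1 ± 16.2 against 22.7 ± 8.34 CPM. GAD1 and GAD2, which make GABA, were higher in D2 nuclei in all 7 libraries, at 117 ± 15.0 against 79.7 ± 18.9 CPM and 279 ± 31.5 against 194 ± 24.3 CPM. Within D2 nuclei both were higher in ALK-rich nuclei than in those with 0 ALK UMIs, in all 7 libraries. Mean UMIs per thinned nucleus were 1.89 against 0.716 for GAD1 and 3.32 against 1.96 for GAD2. The ALK-rich nuclei thus raised the D2 levels. Whether GAD1 and GAD2 exceed their D1 levels in nuclei with 0 ALK UMIs was not tested.

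Most genes on the list of G protein and cyclic AMP signalling, which does not hold GNG12 or PDE1A, had small ratios. Of its 26 genes 9 (34.6%) were higher and 4 (15.4%) lower in D2 nuclei in all 7 libraries, beside 9.08% and 6.78% of all features, and the log2 ratios of the list spanned -0.65 (GNAI1) to 0.44 (PDE8B). PDE4D was at 1354 ± 251 against 1031 ± 193 CPM, and PDE1C at 2985 ± 301 against 3925 ± 380 CPM. GNAL, the G protein alpha subunit that couples ADORA2A and DRD1 to adenylyl cyclase, was at 511 ± 39.0 against 476 ± 43.9 CPM. Among striatal transcription factors, BCL11A (log2 ratio 0.46), ZFHX4 (0.48) and FOXP1 (0.12) were higher in D2 nuclei in all 7 libraries, and PBX3 (-0.36), SOX5, FOXP2 and EBF1, which the rule used, were lower. Of 10 CREB family and activity genes 0 were on 1 side in all 7 libraries, and their log2 ratios lay between -0.27 and 0.12.

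Against every class compared, which included the other spiny nuclei, ERBB4-high neurons, oligodendrocytes, their precursors, astrocytes and microglia, few genes were highest in D2 nuclei by a wide margin. In unmarked D2 nuclei NTS was at 73.0 CPM against 36.3 CPM in the next highest class, TRHR at 22.9 against 12.5 CPM and OPRD1 at 57.9 against 36.7 CPM, where the next class was the other spiny nuclei each time. MYO3A, UNC13C, HTR2A, WFS1, INHBA, CNTN5 and PDE4A followed, each less than 1.5 times its level in the next class. UNC5D and ALK were not among them, since UNC5D was at 537 CPM in unmarked D2 nuclei and 539 CPM in ERBB4-high neurons, and ALK at 394 and 1431 CPM. The other spiny nuclei include RELN-rich nuclei, which share these transcripts (OPRD1 50.6 CPM, TRHR 14.9 CPM, NTS 43.2 CPM).

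D2 nuclei differed among themselves. With every unmarked nucleus thinned to 8000 UMIs, the genes whose variance most exceeded that of genes of like mean were ALK, GPC5, NRG3, ZNF804A, RNF220, ROBO2, TRPM3, PDE1A, PHACTR1, NALF1, NTS, SLC9A9, ERBB4, OPCML and GABRG3. ALK had a mean of 2.703 UMIs per 8000 and a variance 24.4 times the mean (median of 7 libraries, from 19.4 to 27.3). With the marked nuclei included, NELL1, SST, NPY, SOX6 and SCG2 headed the order instead. Across the nuclei of a library, ALK counts went with those of ZNF804A (median Pearson r over the 7 libraries 0.69) and against those of ROBO2, an axon guidance receptor (r -0.67), as a description over nuclei that share a library.

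ALK was unevenly distributed. Of 1044 unmarked D2 nuclei, 874 had 0 ALK UMIs of 8000, 63 had 1 to 4, and 107 (10.2%) had 5 or more. These ALK-rich nuclei numbered 19, 27 and 13 in the OVT73 libraries and 14, 14, 8 and 12 in the control libraries, or 16.1%, 7.42% and 9.63% against 15.1%, 14%, 6.78% and 10.3% of unmarked D2 nuclei. All 7 libraries held them, the exact 95% binomial interval for control library 3, with the lowest share, being 2.97% to 12.9%. Among 2074 unmarked D1 nuclei 9 (0.434%) were ALK-rich. The limit of 5 UMIs was set after the distribution was seen, and the genes below were ranked on these nuclei, so that no test is given.

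ALK-rich nuclei held little PENK. Per 8000 UMIs, of the genes that the rule used, PENK was at 0.0334 in ALK-rich and 0.564 in ALK-0 nuclei, DRD2 at 0.470 and 0.355, HS3ST4 at 13.3 and 10.9, and PDE10A at 33.4 and 23.2. Genes outside the rule that were higher in D2 than in D1 nuclei went in both directions, with PTPRM at 4.36 and 2.42 and SP9 at 0.126 and 0.0463, but NTS at 0.0943 and 0.799. ZNF804A, a zinc finger gene, was at 54.3 ± 11.05 against 9.43 ± 1.98 (SD over 7 libraries), TRPM3, a cation channel, at 31.0 ± 7.22 against 5.45 ± 1.63, and BACH2, a transcriptional repressor known from striosomes, at 4.34 ± 1.20 against 0.470 ± 0.153. LUZP2, KCNT2, PTPRO, CUX2, HDAC9, GABRG3, GPC5, RBMS3, TANC1, NTNG1, PELI2 and GRIN2A were also higher in ALK-rich nuclei in all 7 libraries. GRIN2A, an NMDA receptor subunit, was at 6.24 ± 2.20 against 1.12 ± 0.508, and GAD1 at 1.89 ± 0.614 against 0.716 ± 0.224. In the other direction, RGS6, which limits G protein signals, was at 0.164 ± 0.146 against 5.03 ± 1.20, HTR4 at 0.489 ± 0.352 against 5.20 ± 0.594, OPRM1 at 0.781 ± 0.303 against 2.88 ± 0.512 and CA10 at 2.13 ± 1.29 against 16.5 ± 3.77. GULP1, CDH12, PCDH19, SLIT2, NTS, ITGA11, DTNA, MCTP1, PTCHD4, NKAIN3 and SGCZ were lower too. Among 3002 features with at least 0.5 UMIs per 8000 in either set, 328 (10.9%) were higher and 359 (12%) lower in ALK-rich nuclei in all 7 libraries. Of the 13 striosome and exopatch genes measured, BACH2, KCNIP1 and SEMA5B were higher and OPRM1 was lower in ALK-rich nuclei in all 7 libraries, and the other 9 were not on 1 side. SEMA5B was below 0.5 UMIs, and of the 4 list genes above it 2 were higher and 1 lower. ERBB4, on which the rule set an upper limit, was at 2.13 ± 0.993 against 0.622 ± 0.203, higher in all 7 libraries. Of eccentric spiny neuron markers, OTOF was at 0.130 ± 0.0903 against 0.0195 ± 0.0140, higher in 6 libraries and lower in 0, while FOXP2 was at 0.0208 and 0.0279, TSHZ1 at 0.537 and 0.360, and CACNG5 at 0 and 0.0182. A cell type is not assigned to the ALK-rich nuclei here.

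**Figure D4:**
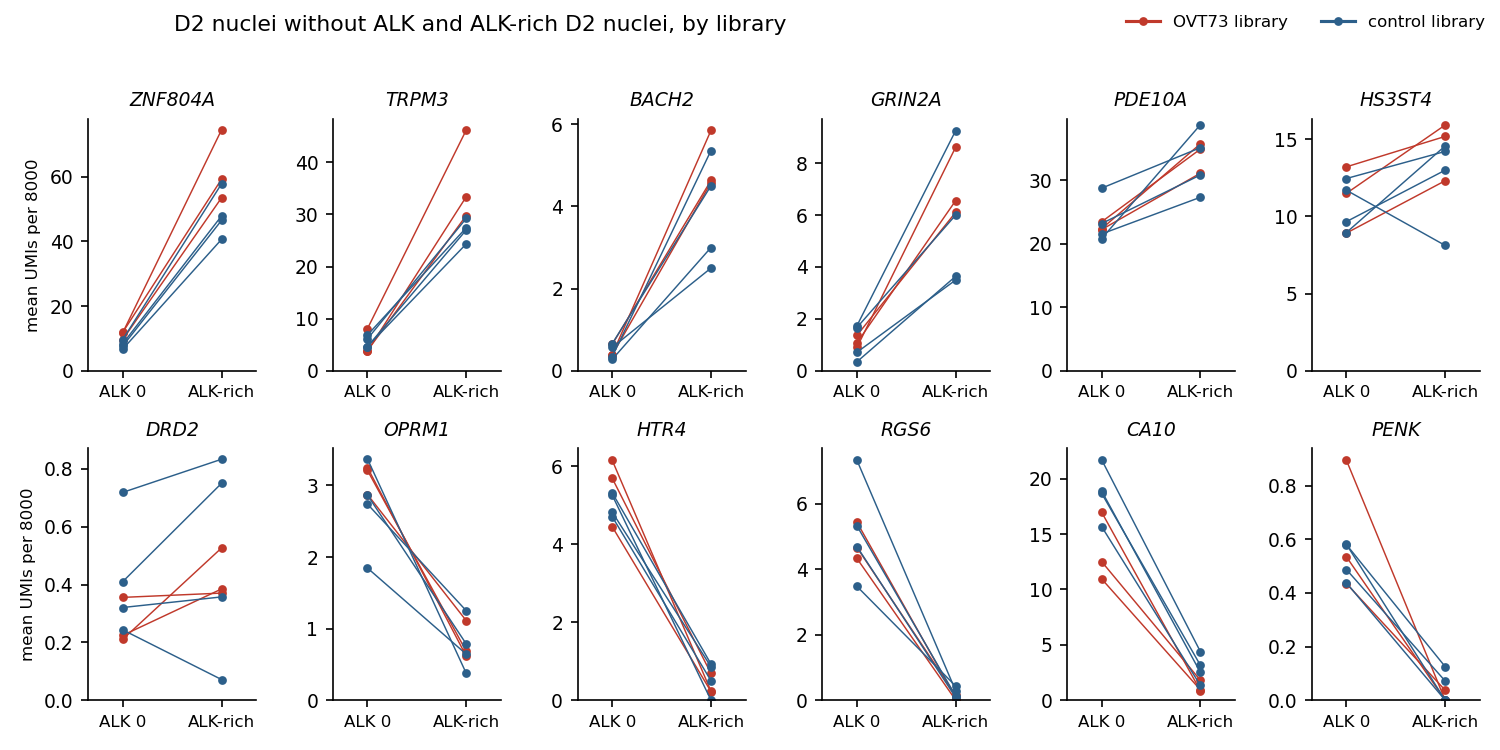
Mean UMIs per 8000 (vertical axes, each from 0) of 12 genes in unmarked D2 nuclei with 0 ALK UMIs and in ALK-rich ones, with 1 line per library (red, OVT73; blue, control). ZNF804A, TRPM3, BACH2 and GRIN2A are higher and OPRM1, HTR4, RGS6, CA10 and PENK lower in ALK-rich nuclei of all 7 libraries, and DRD2 is higher in 6 and lower in 1.

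Some D2 nuclei carried oligodendrocyte transcripts. Of the unmarked D2 nuclei, 60 held at least 8 UMIs of RNF220 and PDE1A together, and 47 of these 60 carried at least 5 UMIs of glial markers, such as MOBP of myelin. In OVT73 library 2 these were 14 of 26, in control library 4 they were 3 of 4, and in the other 5 libraries all such nuclei carried them. Of all 1164 D2 nuclei, 145 carried at least 5 glial UMIs. Summed over 6 measured oligodendrocyte markers, D2 nuclei had 68.0, 50.3 and 60.9 CPM in the OVT73 libraries and 75.5, 198, 106 and 61.9 CPM in the control libraries, with MOG the most abundant. The 7 astrocyte markers summed to 39.5 ± 21.0 CPM, the 7 microglial markers to 167 ± 45.9 CPM with LRMDA the most abundant, and the 6 endothelial markers to 46.4 ± 20.3 CPM with CLDN5 at 0. The 6 precursor markers summed to 181 ± 82.4 CPM with PCDH15 the most abundant and OLIG2 at 0, but to 71.4 CPM on average in unmarked D2 nuclei. Control library 2 had the highest oligodendrocyte sum, and the part of these transcripts in the other results was not tested except by leaving out the nuclei that carry them.

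The comparison of OVT73 with control sheep asked whether the transgene goes with a change in D2 nuclei. UMIs of the D2 nuclei were summed per library, and 10827 features were tested with edgeR's quasi-likelihood test. EPYC, the proteoglycan epiphycan, fell and was the only feature with an adjusted p under 0.05 (0.00924% of those tested). Its normalised level was 7.96, 5.24 and 6.76 CPM in the OVT73 libraries and 29.3, 29.1, 21.2 and 23.3 CPM in the control libraries, so that the groups did not overlap. The log2 fold change was -1.96 (SE 0.23, edgeR adjusted p = 0.0494), from 448 EPYC UMIs in all. No feature was higher at this threshold. Without adjustment, 364 features (3.36%) had a p under 0.05, 144 of them higher (1.33%) and 220 lower (2.03%) in OVT73, and DESeq2 called 3 features, EPYC, PCDH17 and ENSOARG00020014847.

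EPYC was also lower in OVT73 libraries in other spiny nuclei. In unmarked D2 nuclei it was at 6.12, 4.29 and 7.20 CPM against 33.7, 31.6, 29.2 and 25.8 CPM, and the edgeR adjusted p was 0.00489. In RELN-rich nuclei, which the rule left out, it was at 6.44, 4.37 and 13.5 CPM against 23.1, 31.9, 19.3 and 13.1 CPM, where the groups overlapped. In D1 nuclei it was at 10.1, 13.3 and 26.8 CPM against 33.2, 56.6, 44.9 and 30.04 CPM, and the log2 fold change there was -1.25. The difference between the D2 and D1 effects was -0.67 and did not pass the test (edgeR adjusted p = 1.0). The EPYC call in D2 nuclei was lost when any 1 library was left out (edgeR adjusted p from 0.0907 to 0.424, log2 fold change from -2.11 to -1.79), with the libraries of 2 sheep alone (log2 fold change -1.75, edgeR adjusted p = 0.646) and with RELN left out of the sums (-1.67, 0.655). It was also lost with equal numbers of nuclei (-1.73, edgeR adjusted p = 0.246), a minimum of 12000 UMIs (-1.91, 0.207) and a marker ratio of 5 (-1.89, 0.318).

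**Figure D5:**
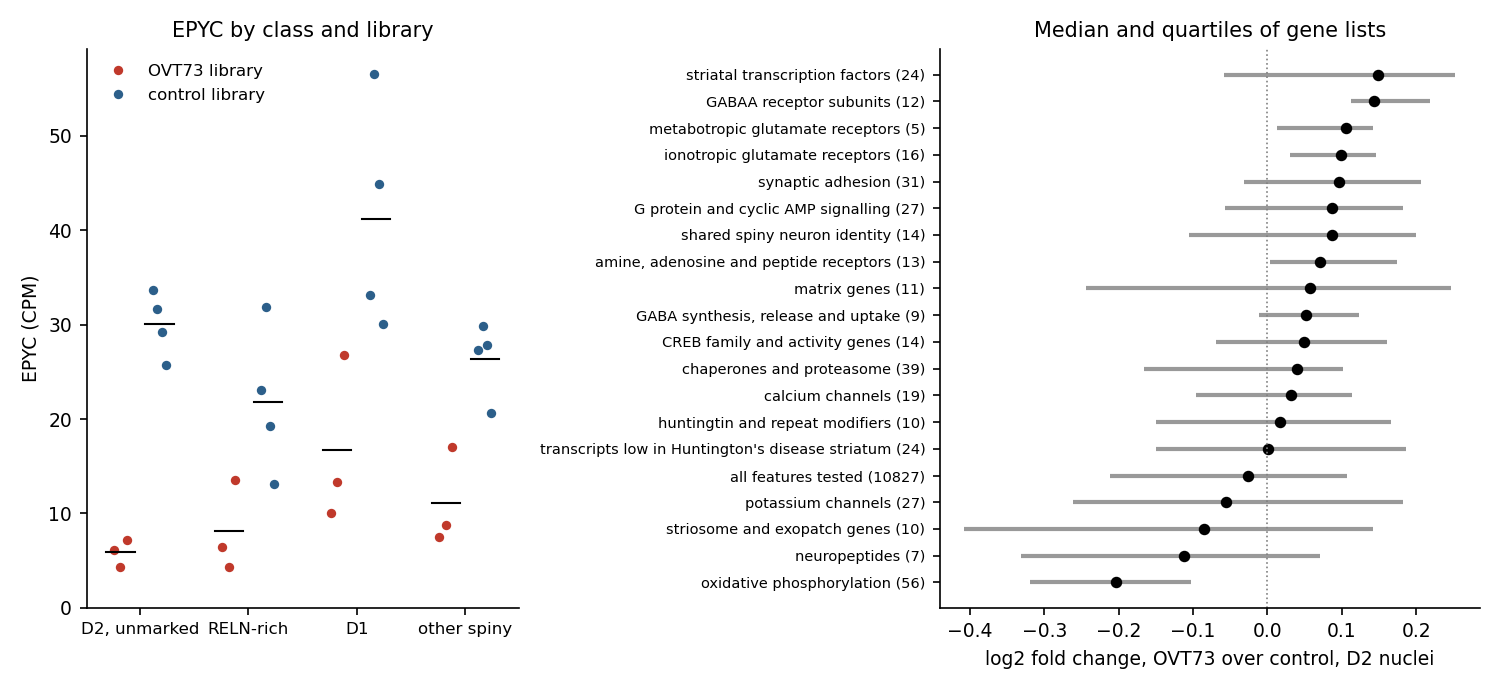
EPYC in CPM (left, vertical axis) in 4 sets of spiny nuclei, with 1 point per library (red, OVT73; blue, control) and a line at each group's mean, and the log2 fold change of OVT73 over control in D2 nuclei (right, horizontal axis) for gene lists with at least 5 genes tested, other than the marker lists of other cell types, as the median (point) and quartiles (bar), with the number tested in brackets. EPYC does not overlap between the groups in unmarked D2 nuclei, and the medians of the lists shown lie between -0.20 and 0.15.

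The groups did not overlap in 579 features (5.35%), 295 higher (2.72%) and 284 lower (2.62%) in OVT73, of which EPYC alone passed the edgeR test. ENSOARG00020014847, which has no symbol in the files, was at 50.96, 52.7 and 53.1 CPM in the OVT73 libraries and 99.0, 77.3, 95.5 and 107 CPM in the control libraries (log2 fold change -0.86, SE 0.13, edgeR adjusted p = 0.302, DESeq2 adjusted p = 0.000361). Among features with a symbol, the 10 with the smallest p in each direction, EPYC included, were as follows. PCDH17, a protocadherin, was at 283, 309 and 274 CPM in the OVT73 libraries and 197, 164, 210 and 204 CPM in the control libraries (log2 fold change 0.57, SE 0.11, edgeR adjusted p = 0.989, DESeq2 adjusted p = 0.0435). CNOT4, PHIP, PGM5, IMPG1, HS3ST5, BMPR1B, ADCY10, CLIP4 and EXTL3 had log2 fold changes of 0.37 to 1.00. HS3ST5 and EXTL3 act on heparan sulfate, and ADCY10 is the soluble adenylyl cyclase. RGS2, which limits G protein signals, was at 21.7, 18.5 and 26.3 CPM against 43.5, 30.8, 38.4 and 34.1 CPM (log2 fold change -0.73, SE 0.18, adjusted p = 0.989). TNNT1, MDFIC2, ZNF576, PRELID1, MTX1, NUP188, TRIM52 and RWDD2A had log2 fold changes of -1.49 to -0.63. All 19 with a symbol besides EPYC had an edgeR adjusted p of 0.989.

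The genes that the rule used did not pass the test between the groups. PENK was at 61.3, 47.6 and 48.0 CPM in the OVT73 libraries and 47.7, 38.7, 37.2 and 41.9 CPM in the control libraries (log2 fold change 0.34, SE 0.15, adjusted p = 0.989), and control library 1 lay between the OVT73 values. DRD2 was at 33.5, 48.9 and 38.4 CPM against 31.1, 30.4, 45.4 and 76.8 CPM (-0.19, SE 0.32), with control library 4 above the rest. HS3ST4, PDE10A, RGS9, RARB and ANO3 had log2 fold changes of 0.09, 0.09, -0.05, 0.09 and 0.32. Since the rule set limits on these genes, their levels in the chosen nuclei are bounded by it. Of the indirect-pathway genes outside the rule, ADORA2A had a log2 fold change of -0.27 (SE 0.28), PTPRM 0.23 (SE 0.14), GRIK3 0.09 (SE 0.34) and SP9 0.14 (SE 0.34), and 0 of 4 passed.

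Gene lists showed small shifts with 0 members called, beside the 0.00924% called among all features. Over all 10827 features the median log2 fold change was -0.03, with 4877 above 0. Of 56 oxidative phosphorylation genes tested, 7 were above 0 and the median was -0.20, and in D1 nuclei the median was -0.22. NDUFS5, a subunit of complex I, was at 18.3, 16.9 and 15.6 CPM against 27.9, 27.4, 22.4 and 17.5 CPM (log2 fold change -0.49, SE 0.20). With the libraries of 2 sheep alone the median of the list was 0.04. Leaving out 1 library at a time gave medians from -0.33 to -0.08.

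Lists of synaptic genes had medians above that of all features. Of 12 GABAA receptor subunits 11 were above 0, with a median of 0.14, and GABRA2 was at 483, 601 and 485 CPM against 490, 488, 324 and 442 CPM (log2 fold change 0.26, SE 0.16). Of 16 ionotropic glutamate receptor genes 12 were above 0 (median 0.10), of 5 metabotropic ones 5 (median 0.11), and of 31 synaptic adhesion genes 21 (median 0.10). ADGRL2, a latrophilin, was at 413, 402 and 432 CPM against 269, 346, 278 and 372 CPM (log2 fold change 0.39, SE 0.13, adjusted p = 0.989). With the libraries of 2 sheep alone, the medians were 0.20 for the GABAA subunits, -0.02 for the ionotropic and -0.05 for the metabotropic glutamate receptors, and 0.13 for synaptic adhesion. Of 24 transcripts known to be low in the striatum in Huntington's disease, 12 were above 0 and the median was 0.00. In that list PPP1R1B, the dopamine-regulated phosphatase inhibitor, was at 16.3, 18.6 and 30.3 CPM against 24.4, 23.9, 35.9 and 28.6 CPM (-0.39, SE 0.24). The log2 fold changes of 13 receptor genes had a median of 0.07, with OPRM1 at 0.35 (SE 0.14) and HTR6 at -0.60 (SE 0.24).

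In CREB family and activity genes, 8 of 14 tested were above 0 (median 0.05), with CREM at 0.55 (SE 0.23) and the activity gene NR4A2 at -1.18 (SE 0.68). Of 39 chaperone and proteasome genes 22 were above 0 (median 0.04), of 27 potassium channel genes 13 (median -0.06), of 19 calcium channel genes 13 (median 0.03), and of 27 genes of G protein and cyclic AMP signalling 17 (median 0.09). The 14 shared spiny neuron genes had a median of 0.09 and the 24 striatal transcription factors one of 0.15, with 16 above 0. In D2 nuclei the 9 genes of GABA synthesis, release and uptake had a median of 0.05, with GAD1 at -0.01 (SE 0.16) and GAD2 at 0.08 (SE 0.13). The 11 matrix genes had a median of 0.06, the 10 striosome and exopatch genes one of -0.08 and the 7 neuropeptides one of -0.11. None of these medians lay further than 0.2 from that of all features.

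No marker of another cell type passed the test between the groups. In D2 nuclei the summed levels were 39.7 CPM in OVT73 and 39.4 CPM in control libraries for astrocyte markers, 168 and 166 CPM for microglial markers, and 59.8 and 110 CPM for oligodendrocyte markers, with overlapping groups. They were 149 and 206 CPM for precursor markers, 37.3 and 53.2 CPM for endothelial markers, and 19.5 and 54.8 CPM for cortical excitatory markers, also with overlap. All 5 oligodendrocyte markers tested were below 0 in OVT73 (median -0.60), as were all 4 precursor markers (median -0.41) and the 1 cortical marker tested (-1.58). Of 3 astrocyte markers tested 1 was above 0 (median -0.07), SLC1A2 being at -0.11 and RANBP3L at -0.07. SLC1A3, an astrocyte glutamate transporter, was at 9.46, 6.05 and 6.06 CPM against 2.12, 3.76, 4.49 and 3.88 CPM (log2 fold change 0.98, SE 0.32, edgeR adjusted p = 0.989), and the groups did not overlap. The 11 interneuron markers tested had a median of -0.37. The summed level of 12 such markers was 1042 ± 274 CPM in all D2 nuclei and 210 CPM on average in unmarked ones, with SST the most abundant in the whole set.

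Huntingtin itself was measured by 2 features. Sheep HTT was at 91.2, 90.3 and 96.7 CPM in D2 nuclei of the OVT73 libraries and 79.5, 105, 111 and 124 CPM in those of the control libraries (log2 fold change -0.18, SE 0.15, adjusted p = 0.989). A further feature named HTT, with no sheep identifier, had 22, 18 and 4 UMIs in D2 nuclei of the OVT73 libraries and 0, 0, 2 and 0 UMIs in those of the control libraries. This came to 2.49 ± 1.90 CPM against 0.130 ± 0.260 CPM, with every OVT73 library above every control library (exact permutation p = 0.0286, the smallest that the design allows). A count of 0 allows up to 1.10, 1.04 and 0.825 CPM in control libraries 1, 2 and 4. OVT73 library 3 was at 0.913 CPM, under the limits of control libraries 1 and 2, so that its place above every control library is within counting error. The sources used here do not say what sequence this feature holds. In D1 nuclei it had 137, 17 and 10 UMIs against 0, 0, 1 and 1 UMIs.

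Whether OVT73 goes with another change in D2 than in D1 nuclei was tested on 11840 features with the library as a block. No feature passed an adjusted p of 0.05 in edgeR, 344 (2.91%) had an unadjusted p under 0.05, and DESeq2 called 1, EYA4. EYA4, a transcriptional coactivator, had the smallest p, its OVT73 effect (log2) being -0.76 in D2 and 1.40 in D1 nuclei with a difference of -2.11 (SE 0.34, edgeR adjusted p = 0.133). In D2 nuclei it was at 4.30, 6.23 and 2.10 CPM in OVT73 and 7.68, 15.5, 1.98 and 4.98 CPM in control libraries, and in D1 nuclei at 28.4, 19.4 and 20.8 CPM against 7.30, 22.4, 2.29 and 4.72 CPM. The groups overlapped in both classes. In edgeR, EYA4 was called with equal numbers of nuclei (-2.57, edgeR adjusted p = 0.00111) and with no filter but 1 UMI (-2.10, 1.56e-09). EYA4 was also called without OVT73 library 2 (-2.72, 0.000252) and without nuclei with glial markers (-2.51, 0.0192). Without the marked nuclei EYA4 was not called (-1.98, edgeR adjusted p = 0.181). SLC1A2, an astrocyte glutamate transporter, did not pass with all libraries and nuclei (difference -1.46, edgeR adjusted p = 1.0) but was called by edgeR with equal numbers of nuclei (-2.18, edgeR adjusted p = 0.000400), with no filter but 1 UMI (-1.46, 0.000138) and without control library 4 (-1.83, 0.0326). The next in that direction were PAMR1, LTBP1, IPMK and FAM241A, and in the other ITPKB, HS6ST3, FAM114A1, NNAT and TSPAN9, each with an adjusted p of 1.0. LTBP1 had a difference of -1.35 with the marked nuclei and of -0.31 without them. For HS6ST3, a heparan sulfate sulfotransferase, the log2 fold change was 0.11 in D2 and -0.27 in D1 nuclei. Without the marked nuclei, edgeR called 3 features, TRPC6 (1.63), SASH1 (0.50) and KIAA1217 (0.52).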

How the data were processed

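Nuclei from frozen anterior striatum were captured by droplet 3' sequencing. The authors deposited raw UMI counts per feature and barcode for each library, before quality control, normalization and assignment to sheep. The submitters' processing notes name Cell Ranger 7.0.0 and STAR 2.7.2a. The study states the genome Oar_rambouillet_v1.0 with Ensembl genes. Its methods do not say in words whether intronic reads were counted. Its library statistics assign more reads to the transcriptome than to exons in every library, so that intronic reads were counted. The 26479 features were used with the symbols in the files, of which 9185 had none.

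D2 nuclei were chosen by the stated rule and their UMIs summed per library, for 2727510 to 9239640 UMIs. edgeR 4.0.16 under R 4.3.3 tested the sums (robust quasi-likelihood after filterByExpr and TMM scaling, two-sided, Benjamini-Hochberg over all features tested), the D2 minus D1 effect with library as a block. DESeq2 1.42.0 was an alternative. Normalised CPM are TMM-scaled; log2 ratios between classes used a prior of 1 CPM. Shares and medians were compared by exact permutation (scipy 1.17.1). The study tested nuclei; here nuclei were not replicates. No doublet caller was run. Intervals and limits cover counting error only.

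On simulated data made from these sums, the group test recovered 58.6% of genes with a log2 change of 1 and 100% of those with a change of 2 (10587 genes). The interaction test recovered 19.0% and 83.0% (10821 genes). The simulation changed many genes at once and gave every gene the same dispersion. Its adjusted threshold was thus easier to reach than in the data, where EPYC alone passed the group test. These shares therefore do not give the power of the tests on the data.

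Members and gene lists were chosen with earlier results of these data known. Named genes were the genes of the rule, the 10 features with a symbol and the smallest p per direction without overlap of the groups, the 15 per direction with the largest D2 to D1 ratio at 20 CPM or more, the 10 highest in D2 against every class, the 15 most variable, the 5 per direction of the interaction, and list members with the highest level or smallest p. The D2 to D1 and class rules were repeated without marked nuclei after the values were seen. The marked, RELN-rich and ALK-rich nuclei were defined after the data were seen. A few list members are not reported here by name.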

Additional observations from a re-analysis of the deposited data

Results flagged for a closer look

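In control library 3, 21 D2 nuclei carried at least 5 UMIs of cortical excitatory markers, against 0 to 3 in the other 3 control libraries, and the highest value lay far from the rest. The markers summed to 195 CPM in D2 nuclei of that library.

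IMPG1, an interphotoreceptor matrix proteoglycan, was at 17.8 CPM in D2 nuclei of control library 4, against 14.4 to 14.8 CPM in the other 3 control libraries. In all, 45 groups of 4 libraries were examined and 2 had such a value; chance gives about 1 in 20.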

How the results depend on the processing

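The count of 1 feature called between the groups became 3 with DESeq2, and 0 with only libraries pooling 2 sheep, equal numbers of nuclei, a minimum of 12000 UMIs, a marker ratio of 5, or RELN left out of the sums (with or without marked nuclei), and 0 to 0 when any 1 library was left out. It stayed 1 without TMM, with either other filter, thinned to 8000 UMIs, or without marked or glial nuclei. The interaction's count of 0 became 1 with DESeq2, 10 with no filter but 1 UMI, 2 with equal numbers of nuclei, 1 without glial nuclei, 3 without marked nuclei, and 0 to 2 when 1 library was left out. The features called with 1 library left out were EYA4 and NELL1 (without OVT73 library 2), CADPS2 and ALK (without control library 3) and SLC1A2 (without control library 4). Leaving out 1 library moved the difference in D2 share of barcodes from 1.01 to between -0.569 (without OVT73 library 2) and 2.29 percentage points, in share of D1 and D2 nuclei from -2.44 to between -8.25 and 5.24 (0.127 without control library 2), and in median UMIs from 4785 to between 1904 and 7094. Without marked nuclei the log2 ratios of D2 to D1 nuclei reversed for NPY (-0.081), SST (-0.062), SOX6 (-0.63), NXPH1 (-0.28), TOX (-0.12), CORT (-0.0046) and CHODL (-0.070). Of the list medians recomputed under alternatives, 46 moved by more than the spread between libraries and 402 did not, and 11 of the 46 moved with only libraries pooling 2 sheep. The causes were not tested beyond the sets of nuclei and libraries named. The alternatives that leave out RELN or marked nuclei were added after seeing the data. No paired analysis was possible because the labels give no replicate numbers shared between the groups. Depth limits low transcripts such as ADORA2A and the added HTT feature.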
